A study of Mus musculus with 8 samples.

Results

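The cytosolic ribosomal proteins are the proteins of the 2 subunits of the ribosome that works in the cytosol, and they were studied here at the level of their mRNAs. Rows of the count table were taken as members when the gene symbol was that of a numbered protein of the small (Rps) or large (Rpl) subunit, of a stalk protein (Rplp) or of Rpsa, and when at least 10 reads were counted in at least 2 of the 8 libraries. Of 24419 rows, 81 had such a symbol and 79 passed the read minimum. Rpl26 and Rpl10l had 0 reads in each of the 8 libraries and were left out. All 79 passed the filter on low counts that preceded the tests, among 13646 genes. Pseudogenes with a numbered suffix and the ribosomal S6 kinases carry other symbols and were not members.

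The RNA came from fibroadipogenic progenitors, mesenchymal cells that live between the fibres of muscle and can form fibroblasts and adipocytes. They were sorted fresh out of hindlimb muscle, and all mice were C57BL/6J males. In the knockdown group (3 libraries), the mice had received orthotopic implants, in the pancreas, of KPCY cells carrying a lentiviral vector that inhibits miR-27a-3p. In the scrambled group (3 libraries), the implanted KPCY cells carried a lentiviral vector with a scrambled sequence. In the sham group (2 libraries), the mice had sham surgery and no tumour cells. KPCY is a mouse pancreatic cancer cell line. The vector was in the implanted cells and not in the sorted progenitors, and both transduced lines had been selected with puromycin. The labels give no age and no time between implantation and sorting. They call the libraries biological replicates of each group, without naming the mice.

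Each ribosomal subunit is a fixed assembly of ribosomal RNA and about 1 copy of each of its proteins, so a cell makes these proteins in near equal numbers. Their mRNAs are among the most abundant in most cells. In mammals they begin with a C followed by a run of C and T bases, the terminal oligopyrimidine tract, through which the protein Larp1 and the kinase mTOR control their translation. Transcription factors of the Myc, GABP and YY1 families are known to act at their promoters.

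Total counts ran from 15647436 to 28340450 per library. On the first principal component of log2 CPM (counts relative to the scaled library size), the knockdown and sham libraries had scores between -47.7 and -32.3. The scrambled libraries had scores of 115, -12.3 and 92.0, and the component took up 61.1% of the variance. Scrambled library 2 therefore stood nearer to the knockdown and sham libraries than to its own group, and tests that rest on it are given with and without it. It was singled out by its values in these same data, and the fit without it holds 2 scrambled libraries. Leaving out a library that stands apart lowers the spread within its group. The smaller p-values of that fit are thus partly built in and are no added support for single genes. Summed CPM of 12 progenitor markers, among them Pdgfra, Ly6a and Dcn, was 46643 to 53178 in the knockdown group, 27587, 43865 and 25322 in the scrambled group and 53615 and 45081 in the sham group, and each of the 12 was above 0 in every library. The 12 did not move together: below both sham libraries lay 4, 3 and 5 of them in the knockdown libraries and 9, 7 and 9 in the scrambled libraries, and above both lay 4, 3 and 3 in the knockdown and 2, 3 and 2 in the scrambled libraries. Dcn was at 16204, 12811 and 15462 CPM in knockdown, 24984, 19625 and 21059 CPM in scrambled and 11101 and 14630 CPM in sham libraries. Cd34 was at 1914, 1925 and 1805 CPM in knockdown, 213, 1179 and 241 CPM in scrambled and 2250.3 and 2156 CPM in sham libraries, and Thy1 was at 347, 460.3 and 303 CPM, at 20.3, 138 and 6.86 CPM and at 659.6 and 351 CPM in the same groups. Summed CPM of 6 muscle stem cell markers was 170 to 201 in the knockdown group, 461, 229 and 358 in the scrambled group and 120 and 134 in the sham group. Of these 6, 4 passed the filter on low counts, and they are not given gene by gene. For 5 Schwann cell markers the sums were 60.1 to 68.7, then 82.0, 49.4 and 77.2, and 33.1 and 35.4 CPM in the same groups. For 6 tenocyte markers they were 727 to 1461, then 688, 924 and 657, and 713 and 1184 CPM. The 10 listed genes of the response to tissue dissociation summed to 12536 to 13628 CPM in knockdown, 16633 to 19123 CPM in scrambled and 9783 and 13083 CPM in sham libraries. Their part in the results was not tested.

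The sequences at the start of the genes were searched for the tract known from these mRNAs. RefSeq windows on GRCm38.p6 were at hand for 58 of the 79 members, each with 250 bases before and 50 bases after the annotated first transcribed base. A C at that base followed by at least 4 more C or T bases was found in 13 of 58 members (22.4%), against 0 of 65 mitochondrial ribosomal protein genes and 3.07% of 10304 tested genes with a window. With the first base of GENCODE M21 transcripts the share was 25.6% of 78 members, against 6.76% of mitochondrial ribosomal protein genes and 4.55% of all genes tested. An annotated start can lie some bases away from the one in use, so these shares describe the annotation. The 6 members printed here were taken from the 13 with the tract and have values in each library further on. All 6 were higher on average in scrambled than in sham libraries, so they do not stand for all 13. Rpl15, which is not printed, has the tract and comes further on among members with small differences. Whether the tract goes with the change was not tested. They are shown with the bases from 10 before to 20 after the start on the strand of the gene. The tract is in capitals.
Rps18 (chr17:33955646-33955675, minus strand): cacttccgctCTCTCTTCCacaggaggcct
Rpl38 (chr11:114668570-114668599, plus strand): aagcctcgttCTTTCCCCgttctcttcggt
Rplp2 (chr7:141447641-141447670, plus strand): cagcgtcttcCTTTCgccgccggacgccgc
Rps21 (chr2:180257369-180257398, plus strand): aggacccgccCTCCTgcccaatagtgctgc
Rps6 (chr4:86857348-86857377, minus strand): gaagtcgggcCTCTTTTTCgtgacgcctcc
Rps27 (chr3:90213629-90213658, minus strand): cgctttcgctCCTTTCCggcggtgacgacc
The capitals run from 5 bases in Rplp2 and Rps21 to 9 bases in Rps18 and Rps6. Longer tracts were found in members not printed, with 10 bases in Rps10, 11 in Rpl35 and 13 in Rpl15. CTTTCC, read on the sense strand from 50 bases before to 50 bases after the start, occurred in 31.0% of the 58 members, in 7.69% of the mitochondrial set and in 5.21% of all tested genes with a window.

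Upstream of the start, motifs known from housekeeping promoters were counted, on both strands over the whole window of 300 bases unless another search is given. CCGGAAG, a core that GABP and other ETS factors can bind, was present in 41.4% of the members, 33.8% of the mitochondrial set and 18.8% of all tested genes with a window. CCATNTT, the YY1 core, was present in 31.0% of members, 32.3% of the mitochondrial set and 17.4% of all. CACGTG, the E-box that Myc can bind, was in 10.3% of members, 6.15% of the mitochondrial set and 11.5% of all. TATAAA on the sense strand within 50 bases before the start was in 0 of 58 members and 1.98% of all. CTTTCC can lie within the tract, as it does in Rpl38, and CCGGAAG holds a G and an A and cannot. Of the genes above, 3 are shown with 80 bases before and 20 bases after the start, with CCGGAAG in capitals.
Rpl38 (chr11:114668500-114668599, plus strand): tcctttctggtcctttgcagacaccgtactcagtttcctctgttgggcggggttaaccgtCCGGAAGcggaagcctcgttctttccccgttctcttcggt
Rps18 (chr17:33955646-33955745, minus strand): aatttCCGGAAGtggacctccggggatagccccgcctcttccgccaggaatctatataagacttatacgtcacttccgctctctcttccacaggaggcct
Rps21 (chr2:180257299-180257398, plus strand): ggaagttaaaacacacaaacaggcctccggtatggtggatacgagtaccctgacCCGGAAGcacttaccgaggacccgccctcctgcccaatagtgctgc
The motif lay at a different distance from the start in each of them. A match describes the letters of the window and not a bound factor.

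Most members were among the abundant mRNAs of these cells. Of the 79, 74 averaged at least 20 CPM over the 8 libraries, from 26.2 CPM for Rps4l to 1194 CPM for Rpl4, a protein that lines the exit tunnel of the large subunit. Divided by the length of the annotated transcript, so that genes can be compared, the median level of these 74 was 457 CPM per kilobase. The highest levels per length were 1238 CPM per kilobase for the stalk protein Rplp1, 1181 for Rps15 at the head of the small subunit, 990.4 for Rps12, 880.1 for Rpl41, the smallest ribosomal protein, and 866 for Rps9. The lowest were 0.221 for Rpl3l, 3.82 for Rpl30, 4.71 for Rpl39l, 5.38 for Rpl34 and 18.6 for Rps27.

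The low values fell into different kinds. Rpl3l, which replaces Rpl3 in heart and skeletal muscle fibres, and Rpl39l, a relative of Rpl39 known from male germ cells in mouse, are expressed in few tissues. Rpl30, Rpl34 and Rps27 are core proteins of every ribosome, yet were counted at 14 to 69, 19 to 109 and 35 to 389 reads per library. Near-identical copies exist for most of these genes, and reads that match several places may be lost or moved in counting. With a copy defined as another GENCODE M21 transcript that matched at least 80% of the coding sequence at 95% identity or more, Rpl30 had 12 copies, Rpl34 5 and Rps27 4. Well-counted members had copies as well, with 57 for Rpl21, 31 for Rpl7a and 27 for Rpl29. Rpl8, Rps3, Rps27l, Rpl39l and Rpl3l were among those with 0 copies by this definition. GENCODE M21 lists Rps4l as a transcribed processed pseudogene without a coding sequence, so its copies were not counted. How the counting treated reads with several matches is not given in the sources used here, so the level of any member with copies is uncertain.

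Summed over the 79 members, ribosomal protein mRNAs took a larger share of the reads in the progenitors of mice with scrambled tumours than in the other groups. The members took 2.60%, 2.25% and 2.54% of all counts in the 3 knockdown libraries, 3.35%, 3.34% and 2.89% in the 3 scrambled ones and 2.33% and 2.61% in the 2 sham ones, by replicate number. Every scrambled library lay above every other library, while the knockdown and sham libraries overlapped. Group means were 2.46 ± 0.184% in knockdown (SD, n = 3), 3.19 ± 0.260% in scrambled (SD, n = 3) and 2.47 ± 0.198% in sham (SD, n = 2). Both subunits took part, since the small-subunit sum was between 0.685 and 0.716 times the large-subunit sum in each of the 8 libraries. These are shares of the reads, and in sorted cells more RNA per cell and more cells of a kind rich in these mRNAs cannot be told apart.

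**Figure D1:**
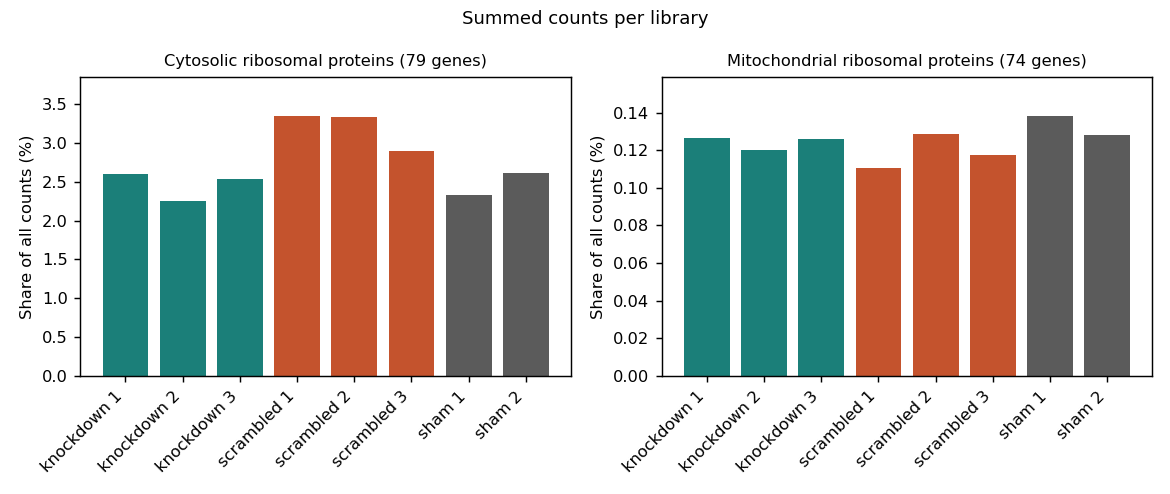
Bars give the summed counts of 79 cytosolic (left) and 74 mitochondrial (right) ribosomal protein genes as a percent of all counts in each of the 8 libraries, both axes starting at 0. The 3 scrambled libraries stand highest on the left, at 2.89% to 3.35%, and the mitochondrial set averages 0.124% in knockdown, 0.119% in scrambled and 0.133% in sham libraries.

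The proteins of the mitochondrial ribosome, a separate machine encoded by other nuclear genes, showed no such step. Their 74 tested genes took 0.124 ± 0.00343% of counts in knockdown, 0.119 ± 0.00910% in scrambled (SD, n = 3 each) and 0.133 ± 0.00716% in sham libraries (SD, n = 2). Their median log2 change was 0.01 in knockdown against scrambled, -0.12 in scrambled against sham and -0.14 in knockdown against sham. Of the 74, 49 were lower in scrambled against sham and 54 in knockdown against sham. Of all 13646 tested genes, 6809 and 6849 were lower there. The set thus lay somewhat below sham in both tumour groups. In knockdown against scrambled and in scrambled against sham, 0 of these 74 genes passed edgeR's quasi-likelihood test at an adjusted p of 0.05. Unadjusted p was under 0.05 for 3 higher and 9 lower genes in knockdown against scrambled. In scrambled against sham it was so for 4 higher and 3 lower genes. DESeq2 called 2 higher and 4 lower in knockdown against scrambled and 0 higher and 1 lower in scrambled against sham. Of all genes, 0.0513% and 1.58% passed edgeR's test in these comparisons. At an unadjusted p under 0.05 in edgeR, 1896 of 13646 genes were higher and 2532 lower in knockdown against scrambled. In scrambled against sham, 2283 were higher and 1707 lower. DESeq2 called 11.1% of all genes lower in knockdown against scrambled and 9.64% higher in scrambled against sham. With scrambled library 2 left out, edgeR called 18 higher and 14 lower in knockdown against scrambled and 8 higher and 20 lower in scrambled against sham, with medians of 0.08 and -0.20. In that fit 27.3% of all genes were higher and 26.6% lower in knockdown against scrambled, and 25.4% higher and 25.6% lower in scrambled against sham.

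Set gene by gene against the mean of the sham libraries, the members moved together in each scrambled library. Over the 74 members of at least 20 CPM, the median log2 CPM relative to the sham mean was 0.05, -0.12 and 0.02 in the 3 knockdown libraries, and 0.62, 0.48 and 0.27 in the 3 scrambled ones. Above both sham libraries stood 28, 2 and 17 of the 74 in the knockdown libraries and 72, 70 and 59 in the scrambled libraries. These are 37.8%, 2.70% and 23.0% of the members in the knockdown libraries and 97.3%, 94.6% and 79.7% in the scrambled libraries. Of all tested genes, 32.4%, 35.2% and 30.4% lay above both sham libraries in the knockdown libraries and 44.0%, 36.1% and 42.7% in the scrambled libraries. Below both sham libraries lay 48 members in knockdown library 2, where 35.4% of all genes did, and 10 in scrambled library 3, where 44.8% did. Among the scrambled libraries, library 1 had the highest value for 61 of the 74 members and library 3 the lowest for 64. Scrambled library 2, which lay far from libraries 1 and 3 over all genes, therefore lay between them for ribosomal proteins.

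**Figure D2:**
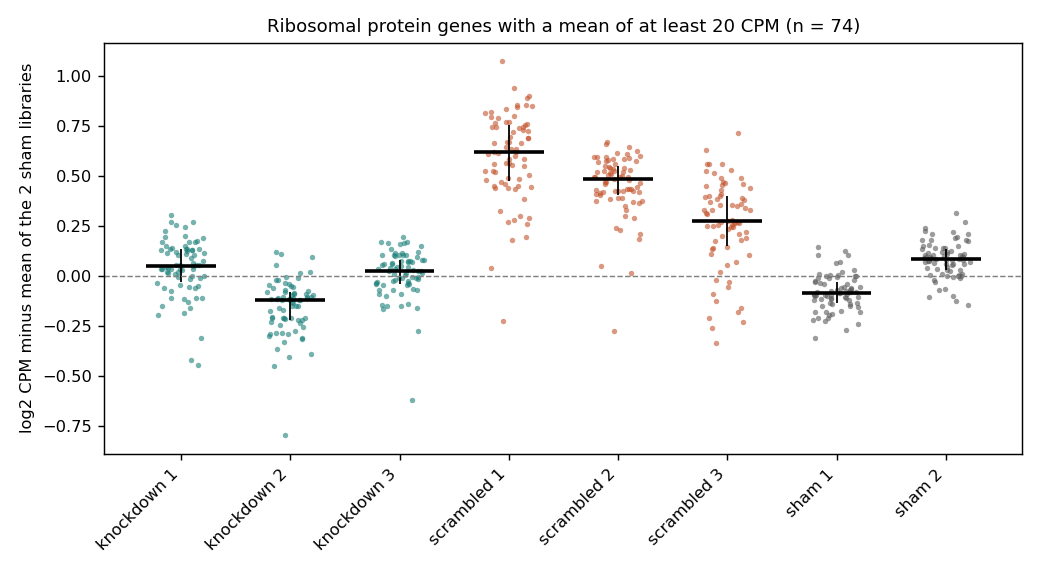
Each point is 1 of 74 ribosomal protein genes, placed by its log2 CPM in a library minus its mean log2 CPM in the 2 sham libraries; horizontal lines are medians and vertical lines run between the quartiles. The medians of the 3 scrambled libraries are 0.62, 0.48 and 0.27 and those of the 3 knockdown libraries 0.05, -0.12 and 0.02.

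The first comparison asks what a scrambled KPCY tumour changes in the progenitors of the muscle. Ribosomal protein mRNAs of both subunits were more abundant in scrambled than in sham libraries by a similar amount in nearly every gene, without a single member passing the test over all genes. The median log2 fold change of the 79 members was 0.47, with quartiles of 0.36 and 0.58, where the median of all 13646 tested genes was 0.00. Of the 79, 76 had a positive change, as did 50.1% of all tested genes. In edgeR's quasi-likelihood test with Benjamini-Hochberg adjustment over all genes, 0 of the 79 passed 0.05, where 1.58% of all genes did. At an unadjusted p under 0.05, 48 members were higher and 0 lower, with 16.7% of all genes higher at that level. The 3 scrambled libraries lay above both sham libraries for 58 members, and did so for 20.2% of all genes.

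The count of calls depended on the tool and on scrambled library 2. DESeq2 called 30 of the 79 higher and 0 lower at an adjusted p of 0.05, with 9.64% of all genes called higher. Without scrambled library 2, edgeR called 46 members higher and 1, Rpl39l, lower, with 25.4% of all genes called higher, and the median change was 0.49. The size of the change was thus close with and without this library while the number of calls was not, over all genes as over the members.

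The second comparison asks what inhibiting miR-27a-3p in the tumour cells changes in the progenitors of the muscle, between separate libraries. The members stood lower in the knockdown group than in the scrambled group, by about the same amount. Their median log2 fold change was -0.49, with quartiles of -0.57 and -0.38, where that of all tested genes was 0.01. Of the 79, 76 were lower, where 49.2% of all genes were. Again 0 members passed edgeR's test at an adjusted p of 0.05, where 0.0513% of all genes did. At an unadjusted p under 0.05, 61 members were lower and 1 higher, with 18.6% of all genes lower. The knockdown libraries lay wholly below the scrambled libraries for 65 members and for 16.7% of all genes. DESeq2 called 52 members lower, where it called 11.1% of all genes lower. Without scrambled library 2, edgeR called 58 lower and 1, Rpl39l, higher, with 26.6% of all genes called lower, and the median was -0.50.

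Both comparisons use the same 3 scrambled libraries, so that a library high or low by chance moves them in opposite directions. The comparison of knockdown with sham does not use them for its group means. Here the median log2 change of the members was -0.01, with quartiles of -0.09 and 0.05, and 35 members were higher and 44 lower. In edgeR, 0 of the 79 passed at an adjusted p of 0.05, where 0.00733% of all genes did, and DESeq2 also called 0. At an unadjusted p under 0.05, 1 member, Rpl37a, differed, where 2.37% of all genes did in either direction. Groups did not overlap for 10 members, 2 higher and 8 lower, where 27.3% of all genes had such a gap in either direction.

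**Figure D3:**
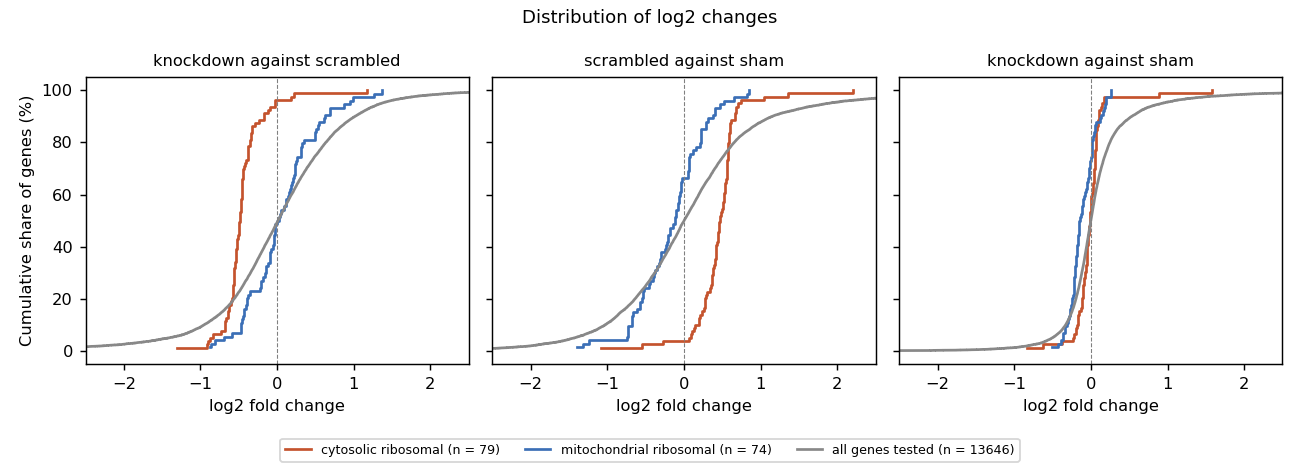
Lines give the cumulative share (%) of genes up to each log2 fold change for 79 cytosolic ribosomal, 74 mitochondrial ribosomal and all 13646 tested genes, with 1 panel per comparison; log2 changes beyond 2.5 on either side are not drawn. The line of the cytosolic set is steep and centred at -0.49 in knockdown against scrambled and at 0.47 in scrambled against sham, and lies near 0 in knockdown against sham.

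The changes of most members lay close together. Over the 74 members of at least 20 CPM, the SD of the log2 change between genes was 0.185 in knockdown against scrambled and 0.177 in scrambled against sham, near the standard error of a single member. The median change of the 30 small-subunit genes was -0.49 in knockdown against scrambled and 0.52 in scrambled against sham, and that of the 45 large-subunit genes -0.50 and 0.46, with the relatives Rps4l, Rps27l, Rpl3l and Rpl39l left out of both. Members were also split by their number of copies. In scrambled against sham, the median was 0.55 for the 13 genes with 0 or 1 copy, 0.47 for the 44 with 2 to 9 and 0.40 for the 16 with at least 10. In knockdown against scrambled, these medians were -0.53, -0.50 and -0.47. Across the 73 members with a coding sequence, Spearman's rho of the number of copies with the change was 0.17 in knockdown against scrambled, -0.22 in scrambled against sham and -0.06 in knockdown against sham. For the coding length, rho was 0.13 in knockdown against scrambled, 0.08 in scrambled against sham and 0.35 in knockdown against sham. These are descriptions, since all genes share the same libraries.

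**Figure D4:**
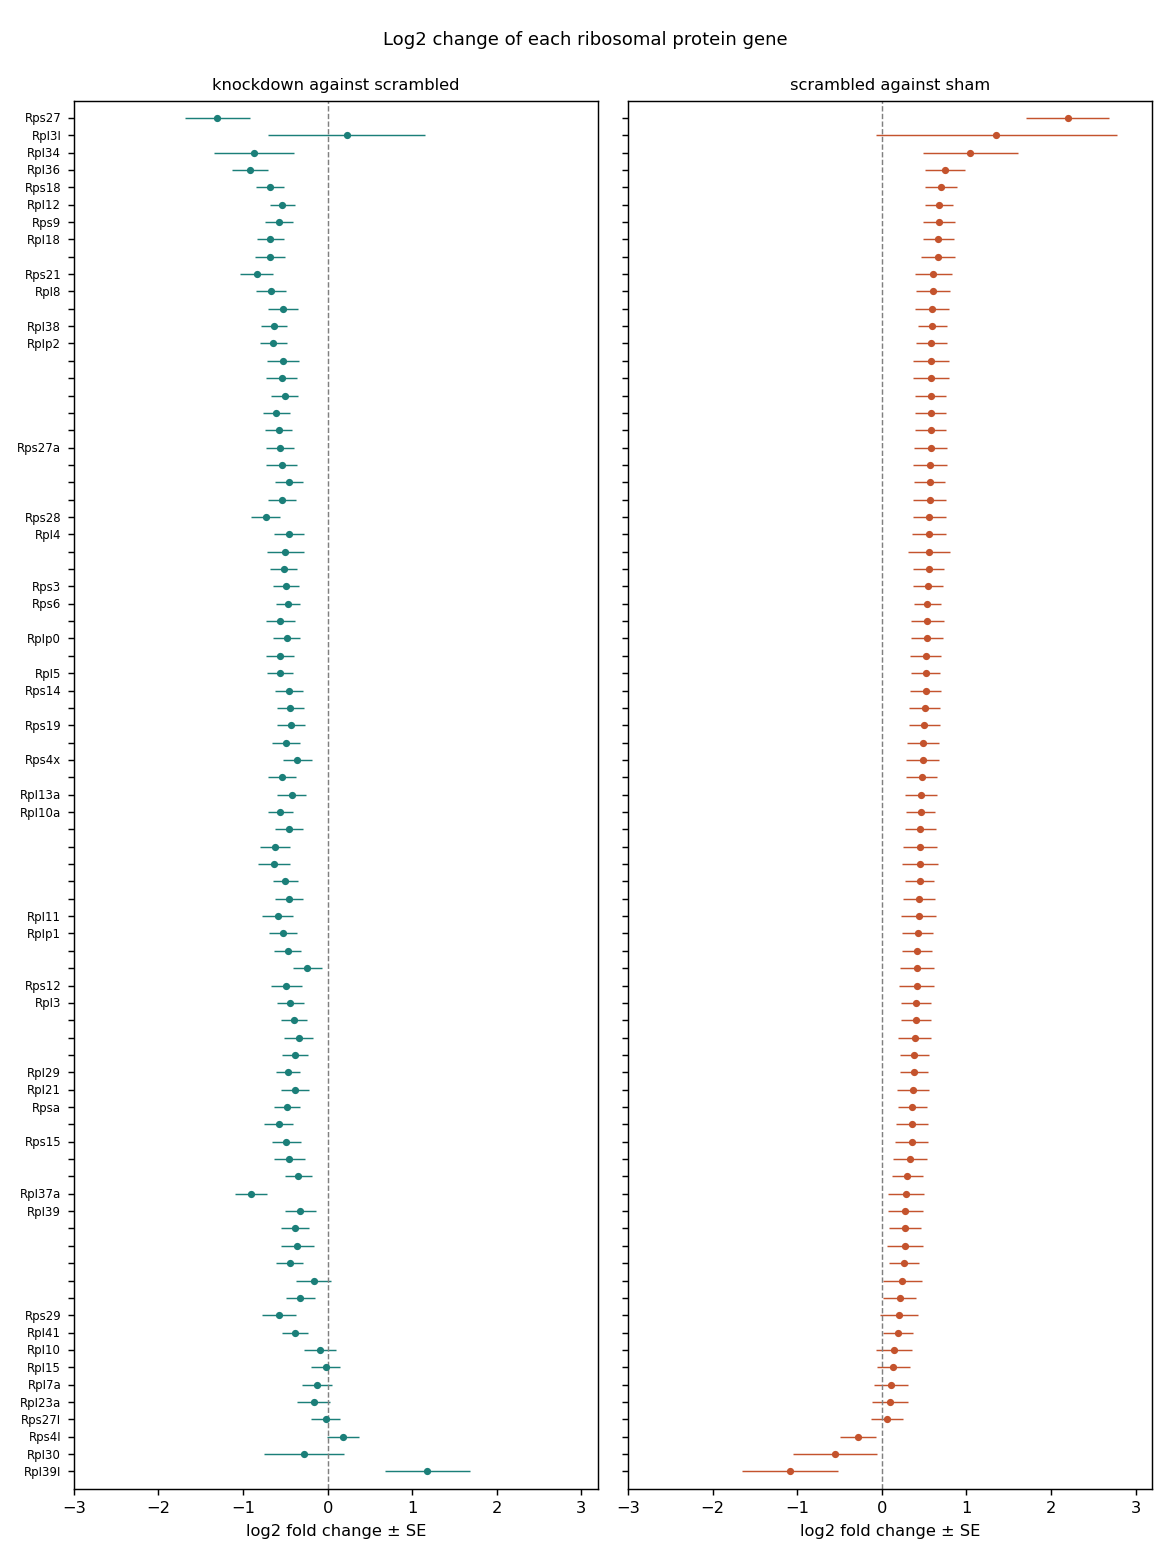
Points are the log2 fold changes of all 79 members, with bars of 1 standard error, in knockdown against scrambled (left) and scrambled against sham (right), ordered by the change on the right and labelled where the gene is named in the text. All but 3 members lie below 0 on the left and all but 3 above 0 on the right, and the bars are widest for the rarely counted Rpl3l, Rps27, Rpl34, Rpl30 and Rpl39l.

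Leaving out its relatives Rps4l and Rps27l, each of the 30 genes of the small subunit had a negative change in knockdown against scrambled and a positive one in scrambled against sham. In the values that follow, the libraries of a group stand in the order of their replicate numbers, and coordinates are those of GENCODE M21 on GRCm38. Adjusted p is printed for part of the members, mostly with all libraries and without scrambled library 2. Over all alternatives and all members named by rule, adjusted p ran from 0.000235 to 0.997 in knockdown against scrambled. In scrambled against sham it ran from 0.000231 to 0.951. Of the members named by rule, 25 of 33 in knockdown against scrambled and 20 of 32 in scrambled against sham passed without scrambled library 2. The rule picks in part by p and change in these same data, so these counts are partly built in. In that fit, 26.6% of all genes were lower and 27.3% higher in knockdown against scrambled. In scrambled against sham, 25.4% were higher and 25.6% lower. Named members that did not pass there include Rpsa (edgeR adjusted p = 0.0637), Rplp1 (0.0503), Rps12 (0.0997), Rps15 (0.123) and Rps4x (0.0510). Rps18 (ENSMUSG00000008668.15, chr17:33951999-33956001, minus strand), a protein of the head of the small subunit, had 340.5, 312 and 326 CPM in the 3 knockdown libraries, 614, 454 and 495 CPM in the 3 scrambled libraries and 307 and 334 CPM in the 2 sham libraries. The scrambled libraries lay above all others, with library 1 the highest and library 2 the lowest of them. The log2 change of Rps18 was -0.68 ± 0.17 in knockdown against scrambled (edgeR adjusted p = 0.0727, and 0.000594 without scrambled library 2) and 0.70 ± 0.19 in scrambled against sham (edgeR adjusted p = 0.0794, and 0.00111 without scrambled library 2). Rps9 (ENSMUSG00000006333.14, chr7:3703993-3706897, plus strand), which binds early in the assembly of the subunit, had 585, 499 and 586 CPM in the 3 knockdown libraries, 941, 803 and 749.9 CPM in the 3 scrambled libraries and 519 and 522 CPM in the 2 sham libraries. Here too the 3 scrambled libraries did not overlap with the others. The change of Rps9 on the log2 scale was -0.58 ± 0.17 in knockdown against scrambled (edgeR adjusted p = 0.0779, and 0.00425 without scrambled library 2) and 0.68 ± 0.19 in scrambled against sham (edgeR adjusted p = 0.0824, and 0.00367 without scrambled library 2).

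Rps6 (ENSMUSG00000028495.14, chr4:86854660-86857412, minus strand), the substrate of the S6 kinases downstream of mTOR, had 205, 195 and 192 CPM in the 3 knockdown libraries, 298, 265 and 258 CPM in the 3 scrambled libraries and 176 and 201 CPM in the 2 sham libraries. The scrambled libraries were the highest and differed little among themselves. For Rps6 the log2 change was -0.47 ± 0.14 in knockdown against scrambled (edgeR adjusted p = 0.0838, and 0.00579 without scrambled library 2) and 0.54 ± 0.16 in scrambled against sham (edgeR adjusted p = 0.0948, and 0.00565 without scrambled library 2). Rps21 and Rps28, small proteins of the small subunit, had larger differences between the tumour groups. Rps21 had 202, 188 and 205 CPM in the 3 knockdown libraries, 428, 341 and 295 CPM in the 3 scrambled libraries and 195 and 271 CPM in the 2 sham libraries, and its log2 change was -0.84 ± 0.19 in knockdown against scrambled (edgeR adjusted p = 0.0717, and 0.00161 without scrambled library 2) against a median of -0.49 for the members. Rps28 had 143, 127 and 148 CPM in the 3 knockdown libraries, 259.6, 234 and 202 CPM in the 3 scrambled libraries and 134 and 179 CPM in the 2 sham libraries, with a log2 change of -0.73 ± 0.17 in knockdown against scrambled (edgeR adjusted p = 0.0726, and 0.00224 without scrambled library 2). For both genes, all knockdown libraries lay below all scrambled libraries and overlapped with the sham libraries.

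Rps19, whose human gene is mutated in Diamond-Blackfan anaemia, averaged 221 ± 36.5 CPM in knockdown, 299 ± 10.6 CPM in scrambled (SD, n = 3 each) and 211 ± 2.29 CPM in sham libraries (SD, n = 2). Rps14, lost in the human 5q- syndrome, averaged 393 ± 38.1 CPM in knockdown, 539 ± 59.1 CPM in scrambled (SD, n = 3 each) and 376 ± 1.62 CPM in sham libraries (SD, n = 2). In both genes every scrambled library lay above every other library. Rps27a, which is made as a fusion with ubiquitin, averaged 292 ± 17.1 CPM in knockdown, 432 ± 61.5 CPM in scrambled (SD, n = 3 each) and 289.7 ± 42.0 CPM in sham libraries (SD, n = 2). Rpsa, which is also known as the laminin receptor, averaged 533 ± 40.3 CPM in knockdown, 742 ± 48.9 CPM in scrambled (SD, n = 3 each) and 577 ± 5.02 CPM in sham libraries (SD, n = 2). For Rpsa, each knockdown library lay below both sham libraries and each scrambled library above them. The log2 changes of these 4 genes ran from -0.56 for Rps27a to -0.44 for Rps19 in knockdown against scrambled, and from 0.36 for Rpsa to 0.58 for Rps27a in scrambled against sham.

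The stalk of the large subunit, formed by Rplp0 with Rplp1 and Rplp2, recruits the elongation factors. Rplp0 (ENSMUSG00000067274.10, chr5:115559467-115563727, plus strand) had 877, 716 and 816 CPM in the 3 knockdown libraries, 1189.5, 1132 and 1052 CPM in the 3 scrambled libraries and 777 and 776 CPM in the 2 sham libraries. Its 2 sham libraries were nearly equal, and the scrambled libraries stood apart above them. The log2 change of Rplp0 was -0.49 ± 0.16 in knockdown against scrambled (edgeR adjusted p = 0.0962, and 0.0128 without scrambled library 2) and 0.53 ± 0.18 in scrambled against sham (edgeR adjusted p = 0.116, and 0.0142 without scrambled library 2). Rplp1 had 540.2, 478 and 547 CPM in the 3 knockdown libraries, 826, 776 and 654 CPM in the 3 scrambled libraries and 552 and 569.7 CPM in the 2 sham libraries. Rplp2 had 271, 249 and 272 CPM in the 3 knockdown libraries, 476, 370.0 and 390.3 CPM in the 3 scrambled libraries and 259 and 289 CPM in the 2 sham libraries. In all 3 stalk genes the scrambled libraries did not overlap with the other groups, and Rplp1 alone of them was lower in every knockdown library than in both sham libraries. The log2 change of Rplp2 was -0.64 ± 0.16 in knockdown against scrambled and 0.59 ± 0.18 in scrambled against sham, and that of Rplp1 -0.53 ± 0.16 and 0.42 ± 0.18 in the same comparisons.

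Rpl12 (ENSMUSG00000038900.17, chr2:32961559-32965345, plus strand), at the base of the stalk, was the member of the large subunit with the smallest p in scrambled against sham. It had 438, 429 and 438 CPM in the 3 knockdown libraries, 692, 617 and 581 CPM in the 3 scrambled libraries and 387 and 403 CPM in the 2 sham libraries. All 6 tumour libraries lay above both sham libraries, the scrambled ones well above the knockdown ones. Its log2 change was 0.68 ± 0.17 in scrambled against sham (edgeR adjusted p = 0.0715, and 0.00192 without scrambled library 2), and -0.53 in knockdown against scrambled. In DESeq2 the adjusted p in scrambled against sham was 0.000341, the lowest over the alternatives tried, which ran up to 0.416. Rpl18, another core protein of the large subunit, had 269, 243 and 272 CPM in the 3 knockdown libraries, 486, 399.8 and 369 CPM in the 3 scrambled libraries and 276 and 250.2 CPM in the 2 sham libraries, with a log2 change of 0.67 ± 0.18 in scrambled against sham (edgeR adjusted p = 0.0813, and 0.00340 without scrambled library 2). Its scrambled libraries again did not overlap with either of the other groups.

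Rpl5 and Rpl11 form a particle with the 5S ribosomal RNA, and outside the ribosome this particle binds Mdm2 and so stabilises p53. Rpl5 (ENSMUSG00000058558.12, chr5:107900502-107909005, plus strand) had 294, 249.9 and 299 CPM in the 3 knockdown libraries, 446, 406 and 398 CPM in the 3 scrambled libraries and 269 and 313 CPM in the 2 sham libraries. Rpl11 (ENSMUSG00000059291.15, chr4:136028265-136053428, minus strand) had 246, 235 and 239 CPM in the 3 knockdown libraries, 443, 338 and 303 CPM in the 3 scrambled libraries and 239 and 296 CPM in the 2 sham libraries. In both genes the scrambled libraries were the 3 highest, but for Rpl11 sham library 2 came close to scrambled library 3. The log2 change in knockdown against scrambled was -0.57 ± 0.16 for Rpl5 (edgeR adjusted p = 0.0750, and 0.00364 without scrambled library 2) and -0.59 ± 0.18 for Rpl11 (edgeR adjusted p = 0.0869, and 0.00642 without scrambled library 2). In scrambled against sham it was 0.52 ± 0.18 for Rpl5 (edgeR adjusted p = 0.112, and 0.0115 without scrambled library 2) and 0.44 ± 0.21 for Rpl11 (edgeR adjusted p = 0.190, and 0.0426 without scrambled library 2).

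Rpl4, the most abundant member by CPM, had 1112, 973 and 1101 CPM in the 3 knockdown libraries, 1683, 1390.1 and 1313 CPM in the 3 scrambled libraries and 932 and 1046 CPM in the 2 sham libraries. Rpl3, which reaches toward the peptidyl transferase centre, had 437, 349 and 401 CPM in the 3 knockdown libraries, 565, 540.1 and 508 CPM in the 3 scrambled libraries and 379.7 and 431 CPM in the 2 sham libraries. For both, the scrambled libraries were the highest, with log2 changes in scrambled against sham of 0.56 ± 0.20 for Rpl4 and 0.41 ± 0.18 for Rpl3. Rpl8, a neighbour of the same centre with 0 near-identical copies by the definition above, had 543, 483 and 530.4 CPM in the 3 knockdown libraries, 977, 703 and 800.0 CPM in the 3 scrambled libraries and 569 and 518 CPM in the 2 sham libraries. Its scrambled libraries stood apart from all others and spread more widely than the other groups. The log2 change of Rpl8 was -0.67 ± 0.18 in knockdown against scrambled (edgeR adjusted p = 0.0728, and 0.000677 without scrambled library 2) and 0.60 ± 0.20 in scrambled against sham (edgeR adjusted p = 0.106, and 0.00268 without scrambled library 2); Rpl8 was outside the rule for named genes and was chosen after its values were seen.

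Rpl38, which in mouse embryos is needed for the translation of certain Hox mRNAs, had 111, 105 and 109.8 CPM in the 3 knockdown libraries, 189, 166 and 149 CPM in the 3 scrambled libraries and 101 and 122 CPM in the 2 sham libraries. For Rpl38 the log2 change was -0.63 ± 0.15 in knockdown against scrambled (edgeR adjusted p = 0.0727, and 0.00220 without scrambled library 2) and 0.60 ± 0.17 in scrambled against sham (edgeR adjusted p = 0.0888, and 0.00633 without scrambled library 2). Rpl10a, linked in mouse cells to ribosomes that favour particular mRNAs, averaged 165 ± 12.9 CPM in knockdown, 244 ± 25.1 CPM in scrambled (SD, n = 3 each) and 177 ± 13.7 CPM in sham libraries (SD, n = 2). Rpl13a, which in human cells can leave the ribosome during inflammation, averaged 634 ± 43.7 CPM in knockdown, 851 ± 109 CPM in scrambled (SD, n = 3 each) and 616 ± 56.3 CPM in sham libraries (SD, n = 2). The log2 changes of these 3 genes in scrambled against sham ran from 0.46 to 0.60, beside the members' median of 0.47.

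The largest differences between the tumour groups among well-counted members were in 2 small proteins of the large subunit. Rpl37a (ENSMUSG00000046330.10, chr1:72711290-72713813, plus strand) had 149, 115 and 130.3 CPM in the 3 knockdown libraries, 273, 207 and 261 CPM in the 3 scrambled libraries and 171 and 234 CPM in the 2 sham libraries. The knockdown libraries were the 3 lowest of the 8, and the scrambled and sham libraries overlapped. Its log2 change was -0.91 ± 0.19 in knockdown against scrambled, with the smallest p of all members there (edgeR adjusted p = 0.0684, and 0.000235 without scrambled library 2), 0.29 ± 0.21 in scrambled against sham and -0.62 ± 0.21 in knockdown against sham (edgeR adjusted p = 1.00). Rpl36 (ENSMUSG00000057863.6, chr17:56613416-56614243, plus strand) had 165, 129 and 166 CPM in the 3 knockdown libraries, 358, 230.0 and 279 CPM in the 3 scrambled libraries and 149 and 195 CPM in the 2 sham libraries. For this gene it was the scrambled libraries that did not overlap with the others. Its log2 change was -0.92 ± 0.21 in knockdown against scrambled (edgeR adjusted p = 0.0716, and 0.000285 without scrambled library 2) and 0.75 in scrambled against sham.

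**Figure D5:**
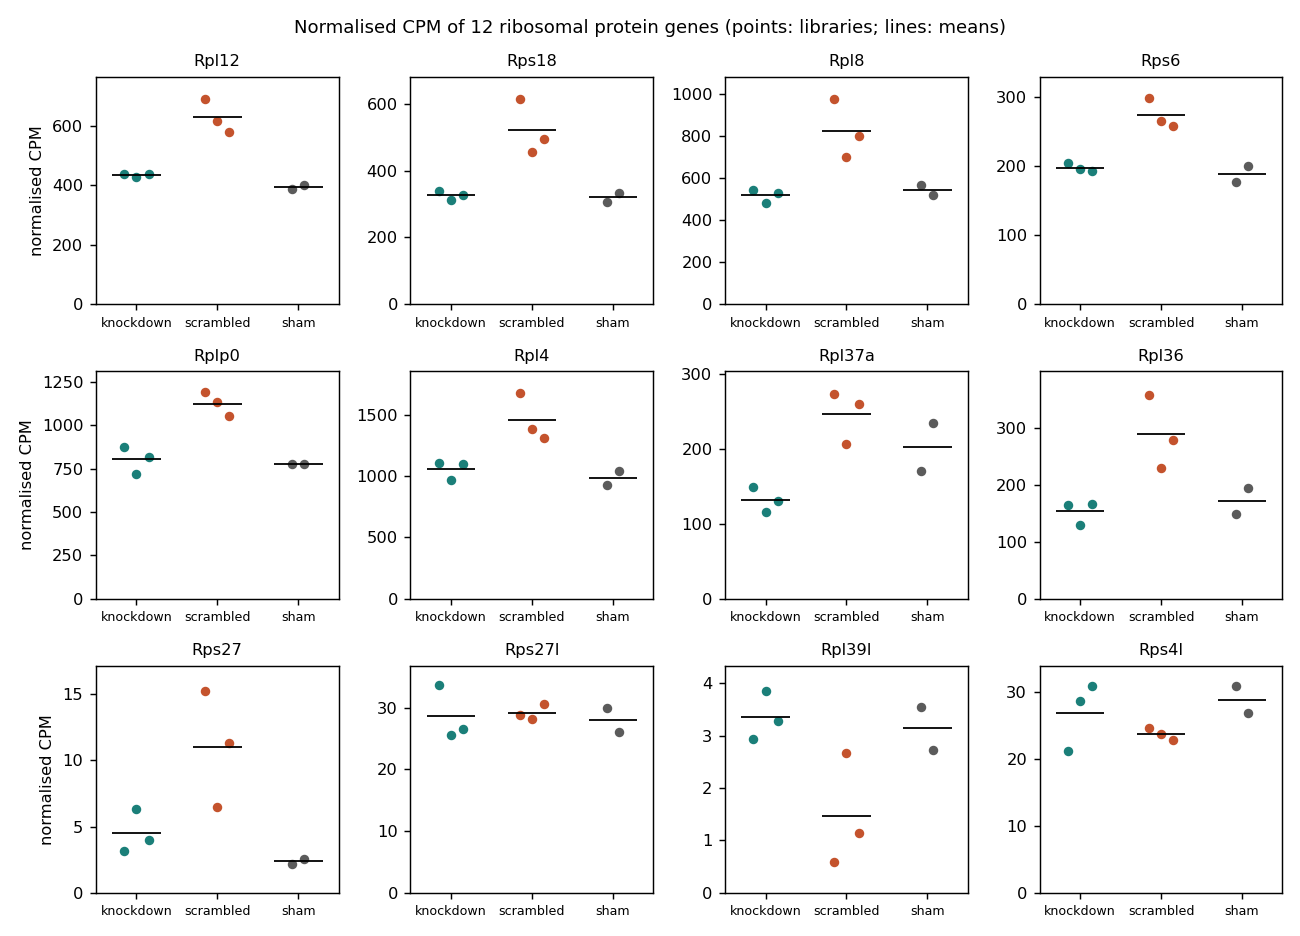
Points are the normalised CPM of 12 ribosomal protein genes in each library and lines are group means, with the groups in the order knockdown, scrambled and sham and each axis starting at 0. In the first 6 genes and in Rpl36 the scrambled libraries lie above all others; in Rpl37a the knockdown libraries lie below all others; Rps27l shows no such gap and Rpl39l and Rps4l are lowest in scrambled libraries on average.

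Rps27 differed most in scrambled against sham, on few reads. It was counted at 62, 113 and 91 reads in knockdown, 389, 154 and 180 reads in scrambled and 35 and 46 reads in sham libraries, which is 3.18, 6.31 and 3.98 CPM in knockdown, 15.2, 6.51 and 11.3 CPM in scrambled and 2.21 and 2.57 CPM in sham libraries. The 3 groups did not overlap, although scrambled library 2 and knockdown library 2 were close. The log2 change was -1.31 ± 0.38 in knockdown against scrambled (edgeR adjusted p = 0.0805), 2.20 ± 0.49 in scrambled against sham (edgeR adjusted p = 0.0578) and 0.89 ± 0.51 in knockdown against sham (edgeR adjusted p = 1.00). Without scrambled library 2, the change in scrambled against sham was 2.49 ± 0.37 (edgeR adjusted p = 0.000231), where the adjusted p over all alternatives ran from 0.000231 to 0.406. Rps27l (ENSMUSG00000036781.13, chr9:66946086-66949516, plus strand), a gene for a near-identical protein that p53 induces in human cells and that had 0 copies by the definition above, had 33.7, 25.7 and 26.6 CPM in the 3 knockdown libraries, 28.8, 28.2 and 30.7 CPM in the 3 scrambled libraries and 30.0 and 26.0 CPM in the 2 sham libraries. Its 3 groups overlapped, with log2 changes of -0.03 ± 0.17 in knockdown against scrambled and 0.06 ± 0.19 in scrambled against sham, and its sign depended on the scaling and on single libraries.

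The other members with a close relative in the set gave values side by side as follows. Rps4x, on the X chromosome, averaged 757 ± 62.6 CPM in knockdown, 970.3 ± 123 CPM in scrambled (SD, n = 3 each) and 693 ± 70.4 CPM in sham libraries (SD, n = 2). Rps4l, the annotated pseudogene, had 21.1, 28.7 and 31.0 CPM in the 3 knockdown libraries, 24.6, 23.8 and 22.9 CPM in the 3 scrambled libraries and 30.9 and 26.8 CPM in the 2 sham libraries. Its scrambled libraries lay below both sham libraries and within the range of the knockdown libraries, with a log2 change of -0.28 ± 0.21 in scrambled against sham (edgeR adjusted p = 0.369, and 0.284 without scrambled library 2). Rpl39 averaged 81.3 ± 3.82 CPM in knockdown, 102 ± 21.8 CPM in scrambled (SD, n = 3 each) and 83.9 ± 8.08 CPM in sham libraries (SD, n = 2), and all groups overlapped. Rpl3l had 11, 6 and 5 reads in knockdown, 3, 5 and 12 reads in scrambled and 0 and 4 reads in sham libraries, too few for a direction.

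Rpl39l had the largest change in the other direction among members with more than a few reads. It had 2.93, 3.85 and 3.28 CPM in the 3 knockdown libraries, 0.588, 2.66 and 1.13 CPM in the 3 scrambled libraries and 3.54 and 2.73 CPM in the 2 sham libraries, from 15 to 75 reads per library. The scrambled libraries were the 3 lowest, with library 2 close to sham library 2. Its log2 change was 1.18 ± 0.50 in knockdown against scrambled (edgeR adjusted p = 0.143) and -1.08 ± 0.57 in scrambled against sham (edgeR adjusted p = 0.224). Without scrambled library 2 it passed the test in both comparisons, at 2.04 ± 0.47 in knockdown against scrambled (edgeR adjusted p = 0.00322, over all alternatives 0.00322 to 0.329) and -1.94 ± 0.52 in scrambled against sham (edgeR adjusted p = 0.00868, over all alternatives 0.00868 to 0.564). Rpl30 was also lower on average in scrambled than in sham libraries, with 1.59, 1.17 and 2.36 CPM in the 3 knockdown libraries, 2.70, 2.49 and 0.882 CPM in the 3 scrambled libraries and 2.85 and 3.35 CPM in the 2 sham libraries, and Rpl34 was higher, with 2.72, 1.56 and 1.71 CPM in the 3 knockdown libraries, 4.27, 1.86 and 5.04 CPM in the 3 scrambled libraries and 1.20 and 2.29 CPM in the 2 sham libraries. Both rest on few reads, and with all libraries neither passed the test in scrambled against sham (edgeR adjusted p = 0.454 for Rpl30 and 0.233 for Rpl34). Without scrambled library 2, Rpl30 did not pass there (edgeR adjusted p = 0.310) and Rpl34 did (edgeR adjusted p = 0.0221).

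A few well-counted members had small differences between the group means. Rpl10, which joins the large subunit late in its assembly, had 581, 514 and 556 CPM in the 3 knockdown libraries, 641, 668 and 453 CPM in the 3 scrambled libraries and 501 and 564 CPM in the 2 sham libraries. Scrambled libraries 1 and 2 were the highest and scrambled library 3 the lowest of the 8, so that the groups overlapped and the log2 change was -0.09 ± 0.19 in knockdown against scrambled and 0.14 ± 0.21 in scrambled against sham. In 9 of the 74 members of at least 20 CPM, Rpl10 among them, scrambled libraries 1 and 2 lay above both sham libraries and scrambled library 3 below them. The share of all tested genes with this pattern was not counted, so the 9 have no background to be read against. These 9 had 1 to 31 near-identical copies with a median of 9, where all members of that level with a coding sequence had 0 to 57 with a median of 5. Rpl15, Rpl23a and Rpl7a, named after their values were seen, were 3 of the 9, and their log2 changes in scrambled against sham were 0.13, 0.10 and 0.11.

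Rpl41 and Rps15, both among the 5 highest per length, had log2 changes of -0.38 ± 0.16 and -0.49 ± 0.17 in knockdown against scrambled, and of 0.19 ± 0.18 and 0.35 ± 0.20 in scrambled against sham, both under the members' lower quartile of 0.36. Rps12 had log2 changes of -0.49 ± 0.18 in knockdown against scrambled and 0.41 ± 0.21 in scrambled against sham. Rps29, a small zinc-binding protein of the small subunit, had 214, 194 and 219 CPM in the 3 knockdown libraries, 359.9, 307 and 269 CPM in the 3 scrambled libraries and 213 and 329 CPM in the 2 sham libraries. Its knockdown libraries overlapped with sham library 1, and the log2 change in knockdown against sham was -0.38 ± 0.22 (edgeR adjusted p = 1.00).

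Ribosomal proteins whose symbols fall outside the rule gave a similar picture. Of 7 tested, the median log2 change was -0.37 in knockdown against scrambled and 0.46 in scrambled against sham, and 0 passed edgeR's test in either comparison, with 4 lower in knockdown against scrambled and 4 higher in scrambled against sham at an unadjusted p under 0.05. DESeq2 called 2 lower in knockdown against scrambled and 2 higher in scrambled against sham. Once scrambled library 2 was left out, edgeR called 4 lower in knockdown against scrambled and 3 higher in scrambled against sham. Of all genes, it then called 26.6% lower in knockdown against scrambled and 25.4% higher in scrambled against sham. The shares of all genes were 11.1% and 9.64% in DESeq2. At an unadjusted p under 0.05 in edgeR, they were 18.6% and 16.7%. Gnb2l1, the older symbol of Rack1, the scaffold on the head of the small subunit, had 701, 556 and 623 CPM in the 3 knockdown libraries, 951, 907 and 785 CPM in the 3 scrambled libraries and 596 and 649 CPM in the 2 sham libraries. Fau, which encodes Rps30 fused to a ubiquitin-like protein, had 208, 162 and 204 CPM in the 3 knockdown libraries, 391, 286 and 279 CPM in the 3 scrambled libraries and 196 and 211 CPM in the 2 sham libraries. In both genes every scrambled library lay above every other library. The log2 change in scrambled against sham was 0.50 ± 0.19 for Gnb2l1, 0.65 ± 0.21 for Fau and 0.46 for Rps3a1. The paralogues Rpl36al and Rpl7l1 had log2 changes of -0.13 and -0.21 there.

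Other mRNAs known to begin with a terminal oligopyrimidine tract, mostly for translation factors, were listed from general knowledge, and 29 of 30 were tested. Their median log2 change was -0.34 in knockdown against scrambled, with 24 of 29 lower, and 0.40 in scrambled against sham, with 23 of 29 higher. Snhg8, a small nucleolar RNA host transcript, was the only one to pass edgeR's test, and it rose in scrambled against sham libraries by a log2 change of 1.04 ± 0.19 (edgeR adjusted p = 0.0375, and 8.62e-05 without scrambled library 2). Snhg8 passed in 6 of 15 alternatives, with adjusted p from 4.08e-05 to 0.368, and in 1 of the 8 that left out a single library; with the replicate number as a block its adjusted p was 0.130. At an unadjusted p under 0.05, 12 of 29 were lower and 3 higher in knockdown against scrambled, and 13 were higher and 2 lower in scrambled against sham. The fit that left out scrambled library 2 called 14 lower and 4 higher in knockdown against scrambled and 15 higher and 2 lower in scrambled against sham. DESeq2 called 10 lower and 2 higher in knockdown against scrambled and 8 higher and 2 lower in scrambled against sham. Of all genes, DESeq2 called 11.1% lower in knockdown against scrambled and 9.64% higher in scrambled against sham. The shares of all genes were 18.6% and 16.7% at an unadjusted p under 0.05 in edgeR. Without scrambled library 2, edgeR called 26.6% and 25.4% of all genes in these directions. Eef1a1, which carries tRNAs to the ribosome, had 4942, 4215 and 4704 CPM in the 3 knockdown libraries, 6598, 5916 and 5582 CPM in the 3 scrambled libraries and 4379.9 and 4324 CPM in the 2 sham libraries. The poly(A)-binding protein gene Pabpc1 had 305, 298 and 313 CPM in the 3 knockdown libraries, 739, 427 and 616 CPM in the 3 scrambled libraries and 279 and 284 CPM in the 2 sham libraries, and its scrambled library 2 lay between the other scrambled libraries and the rest. The 6 genes of the list with a negative change in scrambled against sham were Lgals1 (-1.87), Vim (-1.12), Eef1e1 (-0.64), Eef1g (-0.16), Eif3l (-0.11) and Ybx1 (-0.095), on the log2 scale.

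Genes that control the number and translation of ribosomes were also followed, and 23 of 25 listed were tested. Their median log2 change was -0.61 in knockdown against scrambled and 0.66 in scrambled against sham. The list mixes activators with inhibitors, such as Sesn1 and Eif4ebp1 below, so the median gives no direction of control. Its highest change in scrambled against sham was that of Ddit4, 2.71 ± 0.74 (edgeR adjusted p = 0.0803, and 5.90e-06 without scrambled library 2). Ddit4 had 131, 100 and 87.5 CPM in the knockdown libraries, 598, 68.7 and 392 CPM in the scrambled libraries and 62.8 and 45.5 CPM in the sham libraries. In scrambled library 2 it lay below every knockdown library and near sham library 1. The lowest change of the list in scrambled against sham was that of Sesn3, -0.92. At an unadjusted p under 0.05, 14 were lower and 1 higher in knockdown against scrambled, and 12 were higher and 1 lower in scrambled against sham. When scrambled library 2 was left out, edgeR called 17 lower and 2 higher in knockdown against scrambled and 16 higher and 2 lower in scrambled against sham. By DESeq2, 8 were lower and 1 higher in knockdown against scrambled, and 7 higher and 0 lower in scrambled against sham. Of all genes, DESeq2 called 11.1% lower in knockdown against scrambled and 9.64% higher in scrambled against sham. The shares of all genes were 18.6% and 16.7% at an unadjusted p under 0.05 in edgeR. Without scrambled library 2, edgeR called 26.6% and 25.4% of all genes in these directions. Myc, which drives ribosomal protein transcription, was the only gene of the list to pass edgeR's test with all libraries. It had 300.2, 329.8 and 303 CPM in the 3 knockdown libraries, 654, 380.2 and 655 CPM in the 3 scrambled libraries and 191 and 156 CPM in the 2 sham libraries. Each tumour library lay above both sham libraries, and Myc rose in scrambled against sham libraries by a log2 change of 1.70 ± 0.27 (edgeR adjusted p = 0.0264, and 2.21e-06 without scrambled library 2). In knockdown against scrambled its log2 change was -0.86 ± 0.23 (edgeR adjusted p = 0.0728, and 4.37e-05 without scrambled library 2). The call of Myc in scrambled against sham held in 6 of 15 alternatives, with adjusted p from 1.80e-07 to 0.247, and in 1 of the 8 that left out a single library; with the replicate number as a block it was 0.0946. Larp1, which binds the tract, had 102, 108 and 103 CPM in the 3 knockdown libraries, 176, 103 and 151 CPM in the 3 scrambled libraries and 94.3 and 103 CPM in the 2 sham libraries. The kinase gene Mtor had 55.4, 55.8 and 52.2 CPM in the 3 knockdown libraries, 129.8, 60.8 and 107 CPM in the 3 scrambled libraries and 51.7 and 62.2 CPM in the 2 sham libraries. For both, scrambled library 2 lay within the range of the knockdown and sham libraries, below scrambled libraries 1 and 3. Sesn1, an inhibitor of mTOR signalling, had 59.6, 54.4 and 51.1 CPM in the 3 knockdown libraries, 296, 45.5 and 249 CPM in the 3 scrambled libraries and 42.3 and 50.7 CPM in the 2 sham libraries. Its scrambled library 2 lay within the range of the knockdown and sham libraries as well. Eif4ebp1, the repressor of cap-dependent translation that mTOR inactivates, had 28.4, 29.9 and 28.8 CPM in the 3 knockdown libraries, 112, 45.9 and 113 CPM in the 3 scrambled libraries and 34.3 and 31.0 CPM in the 2 sham libraries, with a log2 change of -1.64 ± 0.31 in knockdown against scrambled (edgeR adjusted p = 0.0610, and 4.79e-07 without scrambled library 2).

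Outside the set, the 5 genes whose log2 CPM followed the mean of the members most closely over the 8 libraries were Gnb2l1, Eif3f, Snhg12, Eef1b2 and Fau. Pearson's r was 0.984 for Gnb2l1, 0.977 for Eif3f, 0.976 for Snhg12, 0.973 for Eef1b2 and 0.971 for Fau, as a description over 8 libraries that share their scaling. Eif3f had 232, 198 and 214 CPM in the 3 knockdown libraries, 365, 290.1 and 284 CPM in the 3 scrambled libraries and 213 and 234 CPM in the 2 sham libraries. In this gene, as in 61 of 74 members, scrambled library 1 was the highest of the scrambled libraries, and libraries 2 and 3 were close.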

How the data were processed

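The deposited file holds unnormalised read counts, 1 column for each of 8 libraries and 1 row per gene symbol. Per the labels' protocols, these were stranded mRNA libraries sequenced as paired reads. Per the submitters' processing notes, the build was mm10, and STAR, Bowtie, R 4.2.1, bcl2fastq 2.20 and DESeq2 1.36.0 were used, without their roles. Which tool counted, with which strand setting and annotation, is not given in the sources used here.

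Counts were fitted in R 4.3.3 with edgeR 4.0.16: filterByExpr (minimum count 10, total 15), TMM scaling, 1 mean per group over all 8 libraries, and robust quasi-likelihood tests, two-sided, adjusted by Benjamini and Hochberg over 13646 genes with a threshold of 0.05. CPM are scaled by TMM; log2 CPM use a prior count of 2. The standard error of a log2 change is its absolute value divided by the square root of F. DESeq2 1.42.0 was an alternative. The procedure was tested on simulated data with changes larger than the median change of the members. That test cannot show whether changes of the members' size would pass. Symbols were matched to GENCODE M21 for identifiers, coordinates and transcript lengths; near-identical copies were found with blastn 2.17.0 (95% identity over 80% of the coding sequence); promoter windows are RefSeq's on GRCm38.p6. Lists come from general knowledge. Total counts of 15647436 to 28340450 make counting error small for most members; it covers reads and not molecules. Nothing says that libraries come from separate mice beyond the word biological, so p-values measure the spread between these libraries.

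Members, lists and tests were chosen with earlier results of these data known. Genes were named for each comparison by the smallest p (4), the highest and lowest change (2 each) and the distance from the members' median (3), for the highest and lowest level per length (5 each), and for known roles; a few others are marked as chosen after their values were seen. No sequence of Rps14 or Rpl17 is reported here.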

Additional observations from a re-analysis of the deposited data

How the results depend on the processing

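The median log2 change of the members kept its sign in knockdown against scrambled and in scrambled against sham under every alternative tried, and ranged over the left-out libraries from -0.58 to -0.42 and from 0.38 to 0.55. In knockdown against sham it ran from -0.11 to 0.06 and so took either sign. The number of members called did depend on the processing. DESeq2 called 52 in knockdown against scrambled and 30 in scrambled against sham, where edgeR called 0; the cause was not tested. Leaving out 1 library gave 0 to 59 members called in knockdown against scrambled, 0 to 47 in scrambled against sham and 0 to 0 in knockdown against sham. Every such call came with scrambled library 2 left out, which also took the calls over all genes to 3705 higher and 3608 lower in knockdown against scrambled, where all libraries gave 7 calls, and to 3441 higher and 3467 lower in scrambled against sham, where all libraries gave 215.

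Scaling by library size alone moved the median of all genes to 0.11 in knockdown against scrambled and -0.09 in scrambled against sham, and that of the members to -0.38 and 0.37. TMM factors computed without the members gave medians of -0.49 and 0.47. Leaving out the 10 genes with the most counts raised the members' mean share to 2.87% in knockdown, 3.66% in scrambled and 2.87% in sham libraries. Same-numbered libraries had correlations of -0.06 to 0.17 between their deviations from the group means, so the numbers were not taken as pairs. With the replicate number as a block, 0 members were called in any comparison, and the medians were -0.49 in knockdown against scrambled, 0.49 in scrambled against sham and 0.02 in knockdown against sham.

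Of the values of single named genes under the alternatives, 1064 stayed on the same side of 0 and of the threshold, 99 came past the threshold, 18 (Myc and Snhg8 in scrambled against sham) no longer passed it and 10 turned round. Those that turned were smaller than their standard errors. Rps27l in scrambled against sham was -0.030 by library size alone and ran from -0.052 to 0.16 over the left-out libraries, below 0 without sham library 2. In knockdown against scrambled, Rps27l was 0.076 by library size alone and ran from -0.16 to 0.048 over the left-out libraries, above 0 without scrambled library 3 and without knockdown libraries 2 or 3. Rpl10 was 0.010 by library size alone and ran from -0.25 to 0.0019, above 0 without scrambled library 2. Rpl3l ran from -0.26 to 0.52, below 0 without scrambled libraries 1 or 2. Depth limits Rpl3l, Rpl30, Rpl34, Rpl39l and Rps27, with at most 389 reads in a library.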

Other observations

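Proteins that carry ribosomal proteins into the nucleus or help to build them into subunits were listed from general knowledge, and 24 of 31 were tested. Their median log2 change was -0.23 in knockdown against scrambled and 0.26 in scrambled against sham. By edgeR 0 of 24 passed in either comparison, with 7 lower in knockdown against scrambled and 6 higher in scrambled against sham at an unadjusted p under 0.05. DESeq2 called 4 lower in knockdown against scrambled and 4 higher in scrambled against sham. In edgeR without scrambled library 2, the calls were 11 lower and 1 higher in knockdown against scrambled and 9 higher and 1 lower in scrambled against sham. Of all genes, that fit called 26.6% lower and 27.3% higher in knockdown against scrambled. In scrambled against sham, 25.4% were called higher and 25.6% lower. DESeq2 called 11.1% of all genes lower in knockdown against scrambled and 9.64% higher in scrambled against sham. At an unadjusted p under 0.05, these shares were 18.6% and 16.7%. Rrs1, which brings the 5S particle into the large subunit in yeast, had 17.8, 23.5 and 23.2 CPM in the 3 knockdown libraries, 71.1, 27.3 and 57.7 CPM in the 3 scrambled libraries and 21.5 and 16.6 CPM in the 2 sham libraries. Its knockdown libraries were all below its scrambled libraries, and the log2 change was -1.27 ± 0.32 in knockdown against scrambled (edgeR adjusted p = 0.0727, and 2.07e-05 without scrambled library 2). Sbds and Nob1, late factors of the large and the small subunit, had log2 changes of -0.82 and -0.84 there. Of 6 importins, Ipo4 (0.32), Ipo7 (0.24), Kpnb1 (0.18) and Ipo9 (0.014) had positive log2 changes there and Ipo5 (-0.34) and Tnpo1 (-0.56) negative ones.

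Of 18 genes of the p53 response, which free Rpl5 and Rpl11 act on, 0 passed edgeR's test in either comparison, with 8 lower and 1 higher at an unadjusted p under 0.05 in knockdown against scrambled and 5 higher and 1 lower in scrambled against sham. DESeq2 called 5 lower in knockdown against scrambled and 5 higher and 1 lower in scrambled against sham. In edgeR without scrambled library 2, 9 were called lower and 2 higher in knockdown against scrambled, and 7 higher and 2 lower in scrambled against sham. That fit called 26.6% of all genes lower and 27.3% higher in knockdown against scrambled. In scrambled against sham, it called 25.4% higher and 25.6% lower. DESeq2 called 11.1% of all genes lower in knockdown against scrambled and 9.64% higher in scrambled against sham. At an unadjusted p under 0.05, these shares were 18.6% and 16.7%. Cdkn1a, the cell cycle inhibitor, had 268, 218 and 249.7 CPM in the 3 knockdown libraries, 809.6, 251 and 417 CPM in the 3 scrambled libraries and 103 and 119.5 CPM in the 2 sham libraries. The scrambled libraries spread widely, scrambled library 2 lay within the range of the knockdown libraries, and the log2 change in scrambled against sham was 2.15 ± 0.44 (edgeR adjusted p = 0.0502, and 5.61e-05 without scrambled library 2). Trp53 and Mdm2 had log2 changes of -0.12 and 0.52 there, and Phlda3 one of -1.43.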
